A study of Mus musculus with 3 samples.

Results

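A set of 10 genes of acute-phase and secreted antimicrobial proteins was described, made up of the serum amyloid A genes Saa1, Saa2 and Saa3, the lysozyme genes Lyz1 and Lyz2, and Lcn2, Slpi, Camp, Hp and Ptx3. They were matched by symbol, with no threshold on their values, and are 10 of 55536 annotated genes. Total RNA depleted of ribosomal RNA came from the cytosolic fraction of bone-marrow-derived macrophages of the C57BL/6J mouse strain, which are primary cells grown from marrow in culture. All 3 libraries belong to 1 group, which received Lipid A at 100 ng/ml over 12 hours, then a washout of 12 hours, and finally a renewed dose of 100 ng/ml lasting 40 minutes. Lipid A is the membrane anchor of bacterial lipopolysaccharide. The labels call the libraries biological replicates 1, 2 and 3, but all carry 1 donor label, with no age or sex, so it is not given whether the cultures came from different animals, and their spread may be partly technical. Unstimulated and singly stimulated cells were not analysed here, so every value is a level and none is a response.

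Acute-phase proteins are plasma proteins whose amounts change when interleukins reach the liver during infection, and macrophages make some of them locally. Serum amyloid A proteins bind lipids and retinol, haptoglobin (Hp) captures free haemoglobin, and pentraxin 3 (Ptx3) marks microbes for complement. Lysozyme cleaves the bacterial cell wall, lipocalin 2 (Lcn2) withholds iron by binding bacterial siderophores, the peptide from Camp disrupts membranes, and Slpi inhibits neutrophil proteases. The transcription factors C/EBP-beta, NF-kB and STAT3 are known to act on many genes of this kind.

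Levels are given in TPM, a measure that scales reads by effective transcript length to a fixed library total and so allows genes to be set side by side within a library. A gene counted as detected where each of the 3 libraries reached 1 TPM. Expected counts on annotated genes summed to between 38197192 and 46327891 per library, and 3 counts, the limit that a count of 0 allows, equal 0.0648 to 0.0785 CPM, counts scaled to a library total of 1000000. The 7SL RNA, a short structured RNA, took 54.5% to 63.0% of TPM, most in replicate 2, and protein-coding genes of the nuclear genome took 27.7% to 33.3%. Intervals and limits on counts cover counting error only. In bulk RNA, fewer cells that express a gene and less of its RNA per cell cannot be told apart.

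The 10 genes covered the range from the most abundant messages to almost none. Only Saa3, Lyz2 and Lcn2 were detected, 3 of 10, where 41.4% of 22028 protein-coding genes were. Lyz1, Hp and Slpi lay around 1 TPM and fell short of it in at least 1 library. Saa1, Camp, Ptx3 and Saa2 were below 1 TPM in every library. A count fell on 8 of the 10 genes in every library, and 6 of the 10 had at least 10 counts in each. At a threshold of 0.5 TPM, or with TPM rescaled over protein-coding genes of the nuclear genome alone, 6 of the 10 were detected.

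**Figure D1:**
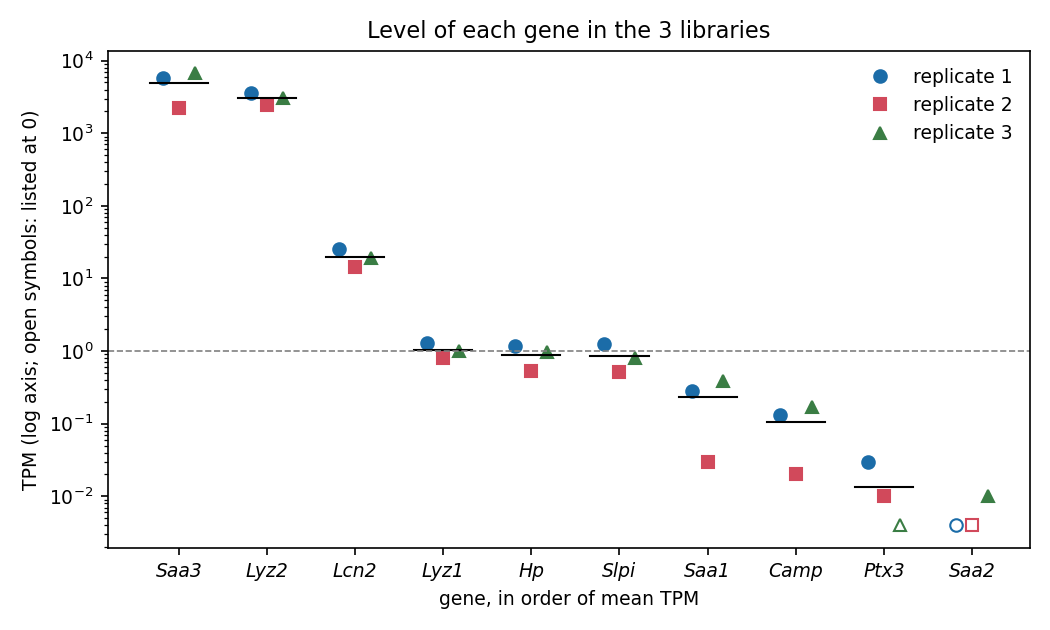
TPM of the 10 genes (horizontal axis, in order of mean TPM) on a log axis; each symbol is 1 library, the black bars are means of 3 libraries, the dashed line is 1 TPM, and open symbols drawn at the bottom are listed at 0. Saa3, Lyz2 and Lcn2 stand above the line in all 3 libraries, and the square of replicate 2 is the lowest symbol for 8 of the 10 genes.

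The serum amyloid A genes share a cluster on the mouse chromosome 7, where 42.3 kb separate the outer ends of Saa3 and Saa2 (build mm10, annotation M21). Saa3 (ENSMUSG00000040026.8, chr7:46711998-46715700, minus strand) and Saa1 (ENSMUSG00000074115.5, chr7:46740497-46742980, minus strand) face the other way from Saa2 (ENSMUSG00000057465.5, chr7:46751790-46754313, plus strand). Their upstream sequences are shown because the near-identical pair Saa1 and Saa2 stayed near 0 counts while Saa3 was among the most abundant messages. They are from RefSeq on GRCm38.p6, read 5′ to 3′ on the strand of each gene, and capitals mark the match to the C/EBP motif TTGCNNAA on either strand. The Saa3 stretch is chr7:46715701-46715850, the Saa1 stretch chr7:46743024-46743180 and the Saa2 stretch chr7:46751633-46751789.
Saa3: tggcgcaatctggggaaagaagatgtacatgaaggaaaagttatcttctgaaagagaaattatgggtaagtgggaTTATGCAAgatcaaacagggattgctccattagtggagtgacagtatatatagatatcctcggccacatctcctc
Saa1: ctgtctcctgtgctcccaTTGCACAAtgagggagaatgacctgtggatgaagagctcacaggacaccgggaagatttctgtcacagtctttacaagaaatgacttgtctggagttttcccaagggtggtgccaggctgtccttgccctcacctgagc
Saa2: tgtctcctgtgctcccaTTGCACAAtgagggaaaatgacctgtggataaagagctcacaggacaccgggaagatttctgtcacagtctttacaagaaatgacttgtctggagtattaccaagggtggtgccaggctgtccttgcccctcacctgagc
Over the 250 bases before the RefSeq start, Saa1 and Saa2 were 95.6% identical in the aligned bases, and Saa3 was 59.4% identical to Saa1 and 61.9% to Saa2. The match began 99 bases before the start in Saa3, 182 in Saa1 and 183 in Saa2.

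Saa3 carried nearly all serum amyloid A RNA in these macrophages. It had 108838, 61339 and 146013 expected counts in replicates 1, 2 and 3, which is 0.324%, 0.152% and 0.441% of the counts on protein-coding genes of the nuclear genome. Its share of the summed TPM of the 3 genes was 99.9959% ± 0.0024 (SD, n = 3), and 99.9949% in the table quantified from reads without an alignment file. Saa1, a major acute-phase protein of liver, had 6, 1 and 10 counts, with exact Poisson 95% intervals of 2.20 to 13.1, 0.0253 to 5.57 and 4.80 to 18.4. Its highest level was 0.39 TPM, in replicate 3. Saa2, the other acute-phase copy, had 0, 0 and 2 counts, and both counts fell on a transcript annotated as retaining an intron. Counts on Saa2 were thus within the limit of 3 counts in each library, and no fold between Saa1 and Saa2 was taken.

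Saa3 shared few stretches of sequence with its relatives. The spliced transcripts of Saa1 and Saa3 were 74.5% identical in aligned bases, and 28 of 579 windows of 31 bases in Saa1 also occurred in Saa3. Saa1 and Saa2 were closer, at 94.4% identity with 155 of 579 windows shared, so the split of their few counts is uncertain. Per 1000000 reads assigned to Saa3, 55.1, 16.3 and 68.5 were assigned to Saa1 in replicates 1, 2 and 3. Whether these are Saa1 transcripts or Saa3 reads placed on the wrong copy was not tested. Within Saa3, a transcript of 555 bases took 99.9% ± 0.0586 of the gene's TPM. Another of 2200 bases received 1209, 237 and 618 counts, or 0.19%, 0.07% and 0.07% of the gene's TPM.

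**Figure D2:**
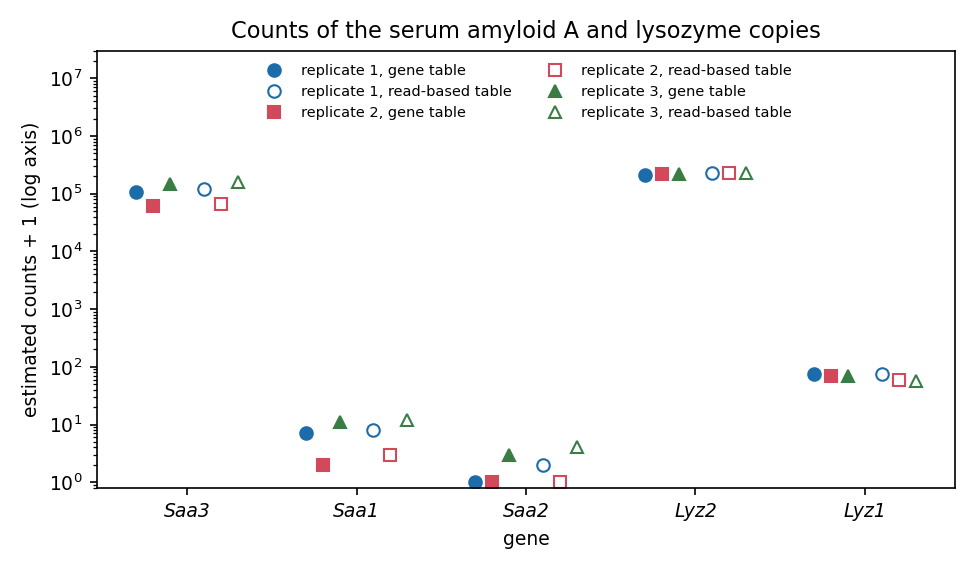
Estimated counts plus 1 on a log axis for the serum amyloid A and lysozyme copies (horizontal axis); each symbol is 1 library, filled for the gene table and open for the table quantified from reads. In both tables Saa3 and Lyz2 exceed their copies in each library, and Lyz1 sits between 67.0 and 74.0 counts in the gene table.

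Among the 3 detected genes Saa3 varied most between replicates. It had 5789, 2257 and 6679 TPM in replicates 1, 2 and 3, so replicate 2 was lowest and the highest value was 2.96 times the lowest. The SD of its log2(TPM + 1) was 0.85, against a median of 0.16 over detected protein-coding genes of the nuclear genome. Saa3 was the only gene of the 10 with an SD of 0.5 or more, a size reached by 1.66% of 9106 such detected genes. With a pseudocount of 0.1 in place of 1, 5 of the 10 reached it, and 2 did without replicate 3. The coefficient of variation of its CPM was 46.7%, while counting error alone gives 0.308%. With replicate 2 left out the SD was 0.15, so the wide spread rests on that library.

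The departure of a library was taken as its log2 TPM minus the mean of the other libraries, after subtraction of the median difference of all detected genes. For Saa3 it was 0.34 in replicate 1, -1.33 in replicate 2 and 0.97 in replicate 3. In replicate 2 it passed a 2-fold change (1 on the log2 scale) downward, as did 0.373% of detected genes. In replicate 3 it came just short of that size upward, which 0.0879% of detected genes reached. The mean set against replicate 3 includes the low replicate 2, so these departures are not independent. Set against replicate 1 alone, Saa3 in replicate 3 had 6679 TPM to 5789 TPM. Neither Lyz2 nor Lcn2 passed a 2-fold change in any library. Replicate 1 departed that far downward for 0.132% and upward for 0.198% of detected genes. Replicate 2 had the lowest TPM for 8 of the 10 genes, where 45.9% of protein-coding genes with a count, and 51.9% of detected ones, had their lowest value there. The departure in replicate 2 was below 0 for all 6 genes with at least 10 counts in each library, as it was for 50% of detected genes, the share that centring on the median gives. It was -0.29 for Lyz2, -0.45 for Lcn2 and -0.36 for Lyz1, inside the middle 95% of detected genes (-0.57 to 0.45). The departure was -0.88 for Hp and -0.81 for Slpi, outside that range, but these genes had only 48 and 27 counts in replicate 2 and were not among the detected genes that set it. With 1 group of 3 libraries no test of a departure was made.

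**Figure D3:**
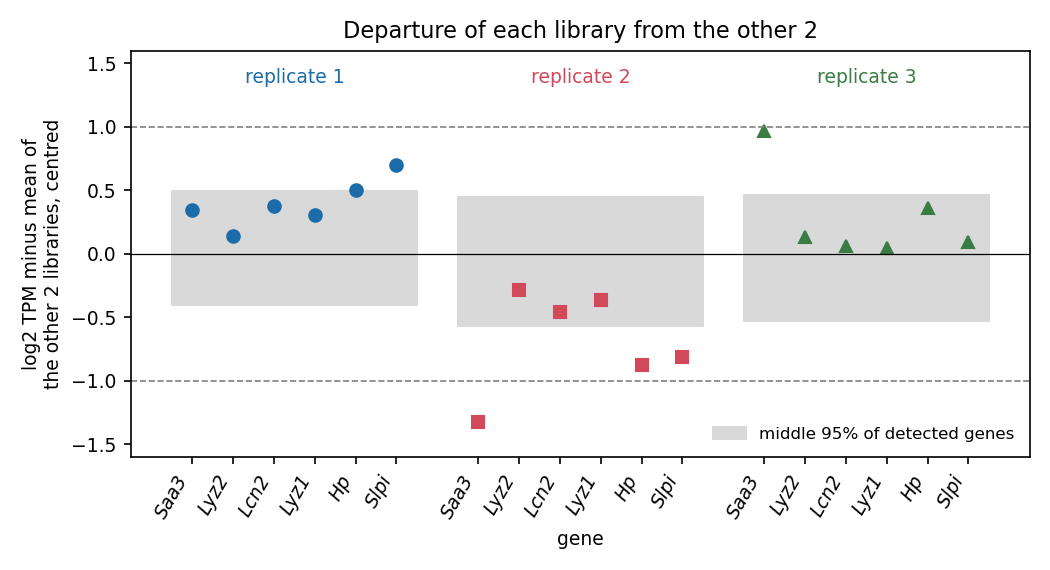
Departure of each library from the mean of the other libraries, in log2 TPM centred on the median of detected genes (vertical axis), for the 6 genes with at least 10 counts in every library; grey bands hold the middle 95% of detected genes and dashed lines mark a 2-fold change. All 6 genes lie below 0 in replicate 2, and Saa3 at -1.33 is the only point past a dashed line.

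The nuclear-retained RNAs Malat1 and Neat1 were lowest in replicate 2 as well. Malat1, a long non-coding RNA of nuclear speckles, departed by 0.43, -1.57 and 1.13 in replicates 1, 2 and 3, and Neat1, the RNA scaffold of paraspeckles, by 0.99, -2.32 and 1.32. In TPM the order of the 3 libraries was thus the same for Saa3, Malat1 and Neat1. For Neat1, however, replicates 1 and 3 were nearly tied at 87.7 and 88.3 TPM, and their counts, 33813 and 31554, had the opposite order. Their part in the low Saa3 value was not tested.

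Of 4130 protein-coding genes with a mean TPM of 10 or more, 5 had centred log2 TPM within 0.25 of those of Saa3 by Euclidean distance over the 3 libraries. They were Leng8 at a distance of 0.11, Ogt, the enzyme that adds O-linked N-acetylglucosamine to proteins, at 0.12, Paxbp1 at 0.21, AC149090.1 at 0.22 and Gm21887 at 0.24. Leng8 had 12.9, 4.66 and 13.5 TPM and Ogt 16.1, 6.16 and 16.6 TPM. None of the 5 belongs to the acute-phase or antimicrobial lists described here, and a profile over 3 libraries is short.

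The lysozyme genes lie side by side on chromosome 10, with a gap of 5.48 kb between Lyz2 (ENSMUSG00000069516.8, chr10:117277331-117282321) and Lyz1 (ENSMUSG00000069515.6, chr10:117287797-117292868), both on the minus strand. Lyz2 encodes the lysozyme of macrophages and Lyz1 that of Paneth cells in the intestine. A stretch of 86 bases upstream of each RefSeq start is shown because these close copies differed in RNA level by a mean factor of 2968. Lyz2 is chr10:117282322-117282407 and Lyz1 chr10:117292918-117293003 on GRCm38.p6, 5′ to 3′ on the minus strand, and capitals mark the 11 of 86 positions at which they differ.
Lyz2: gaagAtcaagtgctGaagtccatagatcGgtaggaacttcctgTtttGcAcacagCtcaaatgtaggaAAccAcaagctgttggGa
Lyz1: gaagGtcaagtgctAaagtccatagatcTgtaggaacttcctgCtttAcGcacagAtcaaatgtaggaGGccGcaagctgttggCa
These stretches were 87.2% identical, and the 250 bases before each RefSeq start were 80.65% identical in the aligned bases. A C/EBP motif match in Lyz1, beginning 209 bases before the start, lies outside the stretch shown. The spliced transcripts were 96.0% identical over 1262 aligned bases. Of 1233 windows of 31 bases in Lyz1, 422 also occurred in Lyz2, so reads from the other windows can be assigned to 1 copy.

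Lyz2 was the steadier of the 2 most abundant genes. It had 3552, 2455 and 3052 TPM, and its departures of 0.14, -0.29 and 0.13 in replicates 1, 2 and 3 lay inside the middle 95% of detected genes in each library. Its expected counts were 214823, 216489 and 220648, or 0.615% ± 0.068 of the counts on protein-coding genes of the nuclear genome (SD, n = 3). Saa3 exceeded Lyz2 in TPM in replicates 1 and 3 and fell below it in replicate 2, with a log2 ratio of 0.57 ± 0.64, so the order of the pair was not separated from the replicate spread. Without replicate 2, the only library in which Saa3 was below Lyz2, the ratio was 0.92 and separated. That call rests on 2 libraries. Lyz2 had more counts than Saa3 in each library, on a transcript of 1316 bases against 555.

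Lyz1 was near the threshold. It had 1.29, 0.80 and 0.99 TPM from 74.0, 67.0 and 68.0 expected counts, and the deposited bounds of TPM were 0.997 to 1.57, 0.616 to 0.989 and 0.757 to 1.22. Replicate 1 was highest. The coefficient of variation of its CPM was 14.5%, close to the 12.0% of counting error, and the exact Poisson 95% intervals of the counts overlap, from 58.1 to 92.9 in replicate 1 and from 51.9 to 85.1 in replicate 2. For Saa3 and Lyz2 the deposited TPM lies above its own deposited bounds, 5622 to 5691 for Saa3 and 3455 to 3486 for Lyz2 in replicate 1, so no difference was read from the bounds. The TPM of Lyz2 was 2753, 3069 and 3083 times that of Lyz1, a mean of 2968 ± 186. In the read-based table it was 2955, 3693 and 3973 times. Per 1000000 reads assigned to Lyz2, 345, 310 and 308 were assigned to Lyz1 in replicates 1, 2 and 3, most in replicate 1. How many of these came from Lyz2 was not tested.

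Lcn2 (ENSMUSG00000026822.14, chr2:32384633-32388252, minus strand) was the only detected gene at an intermediate level. It had 25.4, 14.6 and 19.0 TPM from 980, 818 and 869 counts, highest in replicate 1 and lowest in replicate 2. The coefficient of variation of its CPM was 18.4%, above the 3.35% of counting error. The mean of 19.7 ± 5.45 TPM ranked 2374 among 22015 protein-coding genes of the nuclear genome, against rank 3 for Saa3 and 9 for Lyz2. The main protein-coding transcript took 97.6% ± 0.739 of its TPM, and the 3 transcripts annotated with a retained intron took 1.57%, 0.96% and 0.38% together.

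Slpi and Hp gave few counts, but some in every library. Slpi (ENSMUSG00000017002.14, chr2:164354070-164389095, minus strand) had 45, 27 and 35 counts and 1.24, 0.52 and 0.81 TPM in replicates 1, 2 and 3. Hp (ENSMUSG00000031722.10, chr8:109575128-109579172, minus strand) had 74, 48 and 71 counts and 1.19, 0.53 and 0.96 TPM. For both genes replicate 1 was highest and replicate 2 lowest, and the coefficients of variation of CPM, 33.5% and 30.8%, exceeded the 16.7% and 12.5% of counting error. No count fell on Mir7678, a microRNA gene inside Slpi on the same strand. The size range of the libraries was 250 to 400 bases, so an RNA that short would hardly be counted.

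Camp and Ptx3 were scarcely present. Camp (ENSMUSG00000038357.10, chr9:109847379-109849617, minus strand), which encodes the cathelicidin stored in neutrophil granules, had 4, 1 and 6 counts, with exact Poisson 95% intervals of 1.09 to 10.2, 0.0253 to 5.57 and 2.20 to 13.1. Its highest level was 0.17 TPM, and the intervals of all 3 libraries overlap. Ptx3 (ENSMUSG00000027832.5, chr3:66219910-66225805, plus strand) had 3, 1 and 0 counts and at most 0.03 TPM, at or under the limit of 3 counts in each library. Veph1, which overlaps Ptx3 on the opposite strand, had 0 counts.

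Neighbours in the order of mean TPM were called separated when the log2 ratio of TPM + 1 had the same sign in 3 of 3 libraries and its mean exceeded 2 SD. This held for 3 of the 9 neighbouring pairs. Lyz2 exceeded Lcn2 by 7.21 ± 0.12, Lcn2 exceeded Lyz1 by 3.32 ± 0.21, and Slpi exceeded Saa1 by 0.58 ± 0.21 (SD, n = 3). Each of these ratios was positive in 3 of 3 libraries. Lyz1, Hp and Slpi could not be ordered, with log2 ratios of 0.11 ± 0.11 for Lyz1 over Hp and 0.03 ± 0.08 for Hp over Slpi. Neighbours among Saa1, Camp, Ptx3 and Saa2 were not separated either. The order thus had 3 breaks, below Lyz2, below Lcn2 and below Slpi. Without replicate 2 there were 5 separated pairs, by the same rule applied to 2 libraries. Slpi over Saa1 was then no longer separated, at 0.59, while Saa3 over Lyz2 at 0.92, Saa1 over Camp at 0.21 and Camp over Ptx3 at 0.18 were. With a pseudocount of 0.1 the ratio was 4.12 for Lcn2 over Lyz1 and 1.66 for Slpi over Saa1, and the same 3 pairs were separated. With 3 libraries an exact two-sided test cannot give a p below 0.25, so none was made.

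RefSeq held a promoter for 9 of the 10 genes, all but Hp. A RefSeq start is not always the outer start of the gene in annotation M21. The RefSeq promoters of Lcn2 (chr2:32387690-32387989) and Slpi (chr2:164356458-164356757) lie inside these genes as annotated in M21. That of Camp (chr9:109849407-109849706) lies partly inside. The matches in Lcn2 and Slpi given below are thus not upstream of the outer gene start. The C/EBP motif TTGCNNAA, searched on both strands over the 250 bases before the start, occurred in 7 of these 9, namely Saa1, Saa2, Saa3, Lcn2, Slpi, Ptx3 and Lyz1, and in 9.56% of 32851 mouse promoters. The 7 included genes at every level, from Saa3 down to Saa2, whereas Lyz2 and Camp had none. The interferon-stimulated response element (ISRE) consensus occurred in Saa3 alone, beginning 125 bases before the start, and in 2.98% of all promoters. The PU.1 motif GAGGAA occurred in Lcn2 alone, and in 23.2% of all promoters. The NF-kB consensus, the AP-1 motif TGANTCA, the STAT motif TTCNNNGAA and the TATA motif TATAAA occurred in none of the 9, and in 7.25%, 6.75%, 7.02% and 12.4% of all promoters. Saa1 and Saa2 are near copies and count as separate promoters here. A match describes letters in this window and is not a measured binding site.

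Other acute-phase genes were mostly below the threshold. Of 22 such genes 4 were detected, where 41.4% of protein-coding genes were. The remaining 18 were below 1 TPM in every library, 10 of them with no count at all. The complement genes C3 at 92.1 ± 20.5 TPM and Cfb at 81.5 ± 20.96 TPM led, followed by Cp, the copper-carrying ferroxidase ceruloplasmin, at 32.0 ± 12.7 TPM. Cp had 40.7, 17.4 and 37.9 TPM, and departed by -1.04 in replicate 2, while Cfb departed by -0.50 and C3 by 0.04 there. Of the 4 detected genes 2 departed below 0 in replicate 2, where 50% of all detected genes did. A2m, Apcs and Crp, which encode plasma proteins, had 0 counts in each library.

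Among 18 other antimicrobial genes 5 were detected, where 41.4% of protein-coding genes were. Mpeg1, the pore-forming perforin-2 of macrophages, had 754 ± 87.4 TPM, Wfdc17, like Slpi a gene of the whey acidic protein family, had 344 ± 28.4 TPM, and S100a9, a metal-binding subunit of calprotectin, had 4.55 ± 0.604 TPM. Wfdc17 stood far above Slpi in each library, with 372, 315 and 343 TPM. Bpi and Defb1 had 0 counts, and Ctsg had 2 counts in all. The median of log2(TPM + 1) was 0.89 for the 10 genes, 0.02 for the other acute-phase genes, 0.15 for the other antimicrobial genes and 0.23 for all protein-coding genes.

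Most of the listed inducers and regulators of acute-phase genes were present, and they did not share 1 order of the libraries. Of the 16 listed genes, cytokines, receptors, transcription factors and the inhibitor Socs3, 14 were detected, where 41.4% of protein-coding genes were. Cebpe and Osmr were below 1 TPM in every library. Tnf had 855, 727 and 370 TPM, Socs3, a feedback inhibitor of interleukin 6 signalling, 155, 139 and 82.0 TPM, and Il1b 147, 142 and 80.3 TPM. All 3 were lowest in replicate 3, the library with the highest Saa3. Over the 14 detected genes of this list, 7 had their lowest TPM in replicate 3 and 7 in replicate 2, where 51.9% of detected genes had theirs. After centring, 5 of the 14 departed below 0 in replicate 2. Cebpb, which encodes C/EBP-beta and was picked after its values were seen, had 72.4, 39.1 and 49.99 TPM and was lowest in replicate 2.

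Of 19 receptors and binding partners of the encoded proteins 13 were detected, where 41.4% of protein-coding genes were. Grn, the progranulin gene whose product Slpi protects from cleavage, had 808 ± 79.1 TPM. Hmox1, which degrades haem taken up with haptoglobin, had 98.2 ± 19.0 TPM and Anxa2, a membrane-binding annexin, 98.2 ± 4.91 TPM. Fpr2, a receptor for serum amyloid A picked after its values were seen, had 29.4, 11.7 and 14.4 TPM and was highest in replicate 1. Cd163, the receptor for haptoglobin bound to haemoglobin, and Lrp2, an uptake receptor for lipocalin 2, were below 1 TPM in every library, as was Ager, another receptor for serum amyloid A.

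**Figure D4:**
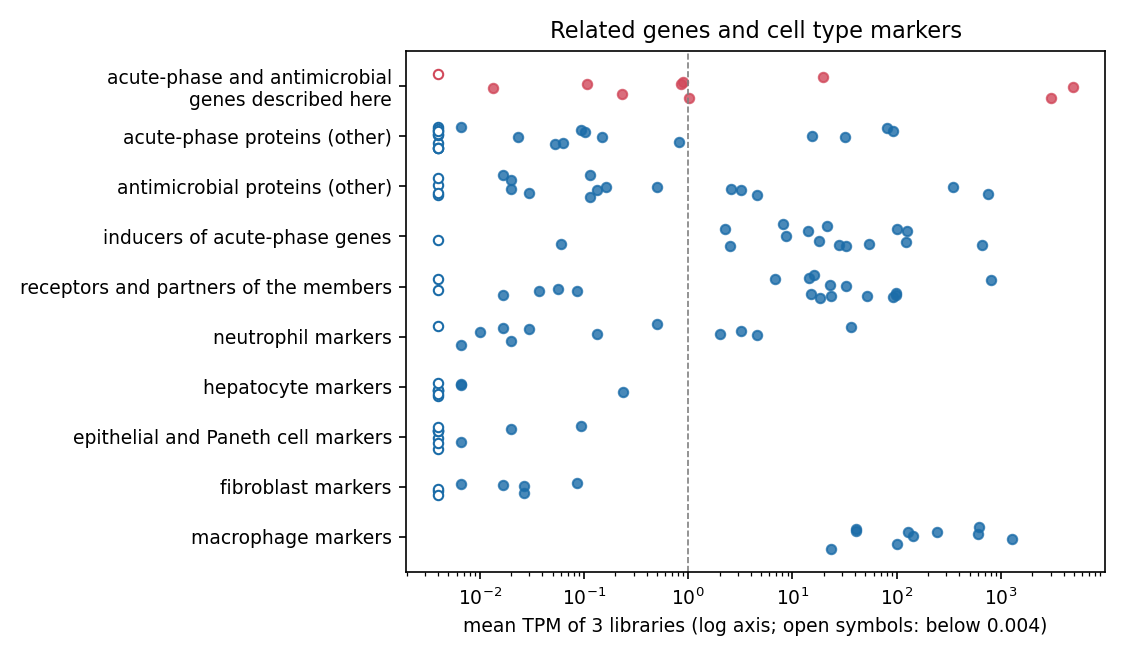
Mean TPM of 3 libraries (log horizontal axis) for each gene of the lists named on the vertical axis; each point is 1 gene, the dashed line is 1 TPM, and open symbols at the left edge lie below 0.004 TPM. Red points are the 10 genes described here, all 10 macrophage markers lie above the line, and no hepatocyte, epithelial or fibroblast marker does.

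Markers of other cells that make these proteins were low. All 10 macrophage markers were detected, where 41.4% of protein-coding genes were. They were led by Fcer1g at 1287 ± 63.9 TPM, Cd68 at 619 ± 59.2 TPM and Adgre1 at 605 ± 163 TPM. The summed TPM of the 10 markers was 3573, 2955 and 3168 in replicates 1, 2 and 3. In replicate 2 Adgre1 departed by -0.60, Cd68 by 0.28 and Fcer1g by 0.03. Of the 10 markers 6 departed below 0 there, where 50% of detected genes did. None of 9 matched hepatocyte markers was detected, with sums of 0.33, 0.36 and 0.06 TPM and 0 counts for Alb and Ahsg. None of 10 epithelial and Paneth cell markers was detected, with sums of 0.27, 0.02 and 0.07 TPM and 0 counts for the defensin gene Defa24. None of 8 fibroblast markers was detected, with sums of 0.08, 0.08 and 0.34 TPM.

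Neutrophils store the products of Camp, Lcn2 and Slpi, and their markers were low but not all absent. Of 12 neutrophil markers 4 were detected, where 41.4% of protein-coding genes were. The sums of the 12 were 52.4, 42.4 and 46.8 TPM. Csf3r, a receptor that macrophages also carry, gave most of this at 36.7 ± 5.35 TPM, followed by S100a9, which is also in the antimicrobial list, and S100a8 at 3.22 ± 0.888 TPM. Mmp8 was detected as well, at 2.01 ± 0.357 TPM from 239, 423 and 245 counts, more counts than S100a9 or S100a8 had. Ngp had 29, 46 and 28 counts but stayed below 1 TPM. Cd177, Cxcr2 and Elane had at most 2 counts in any library. Lcn2 and Slpi were highest in replicate 1 and lowest in replicate 2, as were the sums with Csf3r. Camp, with only 4, 1 and 6 counts in replicates 1, 2 and 3, was highest in replicate 3 and lowest in replicate 2. Without Csf3r the sums were 9.72, 9.97 and 11.8 TPM, lowest in replicate 1. The part of neutrophil RNA in the values of Camp, Lcn2 and Slpi was not tested.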

How the data were processed

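The 3 libraries of 1 group were used. The deposited gene tables hold expected counts, TPM, FPKM and bounds of TPM (a signal on the TPM scale whose level of confidence is not stated), and per the file headers their layout is that of RSEM. The deposited transcript tables made from the same alignments hold expected counts, TPM and the percent of the gene's TPM. A further deposited transcript table, called read-based, holds estimated counts and TPM made from reads and an index, in the layout of kallisto per the file headers. Accompanying text files name build mm10 and annotation M21; the names of aligner and quantifier were not given in the sources used here.

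Members were matched by symbol, and the members and lists were chosen with earlier results of these data known. Of 119 listed symbols 118 matched; Tf did not. Entries that name no gene held 0.356%, 0.125% and 0.104% of counts and were left out. Values are mean ± SD over 3 libraries. Library pairs differed by a chi-square of 39.3 to 97.2 per degree of freedom, more than resequencing of 1 library gives, which does not show that they came from separate cultures. Named genes were all members, in each list the 3 highest and the first 3 in the alphabet detected in no library, and the 5 genes nearest to Saa3, which was both the highest member and the detected one with the widest spread. Malat1, Neat1, Cebpb, Fpr2, Mmp8 and Ngp were named after their values were seen. Promoters are those of RefSeq on GRCm38.p6. Alternatives were other quantifications, thresholds, pseudocounts and denominators, TMM factors of edgeR 4.0.16 and size factors of DESeq2 1.42.0 on the deposited expected counts in R 4.3.3, and each library left out. The departure script was tested on simulated data. Python 3.11.15, pandas 2.3.3 and Biopython 1.88 were used.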

Additional observations from a re-analysis of the deposited data

How the results depend on the processing

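The count of detected genes, 3 at 1 TPM in every library, became 6 at a threshold of 0.5 TPM, 6 at 10 expected counts in every library and 6 with TPM rescaled over protein-coding genes of the nuclear genome. The number of separated neighbouring pairs, 3, ranged from 3 to 5 with each library left out in turn, and was 5 without replicate 2, where Slpi over Saa1 lost its separation and Saa3 over Lyz2, Saa1 over Camp and Camp over Ptx3 gained one. With a library left out, each such call rests on 2 libraries. The count of genes with a wide spread, 1, became 5 with a pseudocount of 0.1, and ranged from 0 without replicate 2 to 2 without replicate 3. The share of Lyz2 in lysozyme TPM, 99.9662%, was 99.9713% in the read-based table. The cause of these changes was not tested. The departure of Saa3 in replicate 2, -1.33, was -1.17 in the read-based table and -1.33 with TMM or DESeq2 scaling. The mean of Saa3 was 4908 TPM in the gene table, 1771 in the read-based table and 16523 rescaled. The log2 ratio of Lyz1 over Hp was -0.03 in the read-based table. No paired analysis was possible because there is only 1 group. Depth limits Saa1, Saa2, Camp and Ptx3, which had counts of 0 to 10 per library.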
